A study of Mus musculus with 12 samples.

Results

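The 10 genes Hal, Uroc1, Amdhd1, Ftcd, Sds, Sdsl, Gls2, Tat, Tdo2 and Hpd encode liver enzymes that break down histidine, serine, threonine, glutamine, tyrosine and tryptophan. They were taken by name, from a list drawn up with earlier results of these data known, and are 10 of the 52636 genes in the deposited table. All 10 were among the 16563 genes with enough reads to test. Hepatocytes were taken from steatotic (fatty) mouse livers and parted into a fraction of low and a fraction of high lipid content by centrifugation over Percoll, a density medium. The 6 mice were 3 wild-type (WT) mice and 3 knockout (KO) mice of Ptprk, which encodes protein tyrosine phosphatase receptor kappa. Each mouse gave a library of polyA RNA from each fraction, so that there were 12 libraries in 4 groups of 3, 1 for each genotype and fraction. The kind of knockout allele, the strain, age, sex and diet are not given in the sources used here, and a steatotic liver was the source in all 4 groups. The comparisons ask how the fractions of a mouse differ, how the genotypes differ within a fraction, and whether the difference between fractions depends on the genotype.

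As background, the liver removes surplus amino acids by taking off their nitrogen, which goes to urea, and feeding the carbon into glucose synthesis or oxidation. Hepatocytes divide this work along the lobule: those next to the portal vein (periportal) meet nutrient-rich blood first and carry much of the amino acid breakdown, urea synthesis and glucose synthesis, while those next to the central vein (pericentral) make glutamine and hold much of the drug metabolism. Hal, Uroc1, Amdhd1 and Ftcd encode consecutive enzymes of the path from histidine to glutamate and a folate-bound one-carbon unit. Hal is histidine ammonia-lyase, Uroc1 urocanate hydratase, Amdhd1 imidazolonepropionase, and Ftcd formimidoyltransferase cyclodeaminase. Sds, serine dehydratase, and its relative Sdsl act on serine and threonine, and Gls2 is the liver-type glutaminase, which frees ammonia from glutamine. Tat, tyrosine aminotransferase, and Hpd, 4-hydroxyphenylpyruvate dioxygenase, open the breakdown of tyrosine, and Tdo2, tryptophan dioxygenase, that of tryptophan.

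Promoter sequences from RefSeq (GRCm38.p6) were matched to 7 of the 10 genes by symbol: Hal, Uroc1, Amdhd1, Ftcd, Tat, Tdo2 and Hpd. The 250 bases before the RefSeq start of the 4 histidine genes are shown because those genes fell together in high-fat hepatocytes, and those of Hpd because its level did not pass the test. Capitals mark matches, on either strand, to the motifs described after the sequences.
Hal: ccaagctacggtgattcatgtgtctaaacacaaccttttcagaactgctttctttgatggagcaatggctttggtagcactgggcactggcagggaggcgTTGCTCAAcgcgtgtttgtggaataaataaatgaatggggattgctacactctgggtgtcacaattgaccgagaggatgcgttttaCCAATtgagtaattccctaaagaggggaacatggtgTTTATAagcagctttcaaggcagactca
Uroc1: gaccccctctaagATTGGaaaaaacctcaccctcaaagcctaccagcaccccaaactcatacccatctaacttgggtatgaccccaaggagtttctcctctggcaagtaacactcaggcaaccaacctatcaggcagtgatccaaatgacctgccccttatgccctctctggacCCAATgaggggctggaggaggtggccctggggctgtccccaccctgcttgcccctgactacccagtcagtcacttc
Amdhd1: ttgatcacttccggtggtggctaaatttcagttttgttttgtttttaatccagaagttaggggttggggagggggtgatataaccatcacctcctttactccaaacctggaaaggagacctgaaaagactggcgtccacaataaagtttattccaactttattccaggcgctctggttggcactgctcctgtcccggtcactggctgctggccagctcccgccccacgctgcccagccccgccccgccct
Ftcd: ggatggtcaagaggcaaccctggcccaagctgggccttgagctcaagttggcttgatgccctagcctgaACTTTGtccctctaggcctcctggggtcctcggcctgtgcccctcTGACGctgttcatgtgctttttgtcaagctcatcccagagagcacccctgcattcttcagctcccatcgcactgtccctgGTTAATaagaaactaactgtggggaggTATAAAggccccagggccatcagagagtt
Hpd: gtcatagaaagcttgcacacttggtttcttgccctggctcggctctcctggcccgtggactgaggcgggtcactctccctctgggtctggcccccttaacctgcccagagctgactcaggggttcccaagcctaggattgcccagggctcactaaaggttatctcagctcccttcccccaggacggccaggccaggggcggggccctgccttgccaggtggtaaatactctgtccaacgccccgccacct
These windows lie at chr10:93488518-93488767 on the plus strand for Hal, chr6:90333039-90333288 on the plus strand for Uroc1, chr10:93540034-93540283 on the minus strand for Amdhd1, chr10:76575398-76575647 on the plus strand for Ftcd and chr5:123182724-123182973 on the minus strand for Hpd. Searched on both strands were the TATA box (TATAAA), the CCAAT box, the CREB core (TGACG), and one form each of a C/EBP motif (TTGCNNAA), an HNF1 half-site (GTTAAT), a forkhead motif (TGTTTAC), an HNF4 motif (CAAAGT) and a glucocorticoid receptor half-site (TGTTCT). A match to TATAAA stood in the windows of Hal, Ftcd and Tdo2, against 12.4% of 32851 promoters of the same length. Counted from the RefSeq start, its first base lay at -28 in Hal, -29 in Ftcd and -229 in Tdo2. In Hal the match was on the strand opposite to the gene (TTTATA), in Ftcd and Tdo2 on the strand of the gene. RefSeq starts can differ from the GENCODE M21 coordinates given below. The Tdo2 window lies inside the GENCODE span of the gene, and that of Uroc1 ends just past the GENCODE start. A CCAAT match stood in the windows of Hal, Uroc1, Tat and Tdo2, against 33.8%. TTGCNNAA was found in Hal alone of the 7 (9.56% of promoters). Ftcd alone held the CREB core (17.8%), the HNF1 half-site (6.43%) and the HNF4 motif (12.6%). The forkhead motif was in none of the 7 (3.17% of promoters), nor was the glucocorticoid receptor half-site (16.1%), and the windows of Amdhd1 and Hpd held no match to any motif searched. No motif was common to the 4 histidine genes, and these matches are descriptions of letters, not sites of binding.

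Values are given as reads per 20 M (mega, so reads per 20 M reads), the scale to which the authors brought each library, and the depth read back from them was 15.1 to 25.0 M reads per library. Ptprk, the targeted gene, had values of 2758, 2883 and 2724 in WT and 1117, 1364 and 1333 in KO low-fat libraries, and of 2174, 2578 and 2469 in WT and 1217, 1204 and 1179 in KO high-fat libraries. Its log2 difference of KO against WT was -1.13 (SE 0.093, limma adjusted p = 0.0013) in low-fat and -0.99 (adjusted p = 0.00501) in high-fat hepatocytes. The labelled cell type had its defining marker: Alb, albumin, lay between 220636 and 268701 in the 12 libraries, and the summed markers of hepatocytes overlapped between low-fat (707108 to 871942) and high-fat libraries (677791 to 866562). Other cells of the liver were also present and differed between fractions. Summed over 10 genes each, Kupffer cell markers lay between 501 and 1417 in low-fat and between 2259 and 12301 in high-fat libraries, stellate cell markers between 212 and 914 and between 2773 and 5182, and sinusoidal endothelial markers between 1242 and 3019 and between 5201 and 16718. The high-fat libraries of WT replicate 1 and KO replicate 1 stood apart, with Kupffer cell sums of 12301 and 10622 against 2259 to 2552 in the other 4. The same libraries also had the highest sinusoidal endothelial sums (16718 and 10813). Their sums of 5 nuclear-retained RNAs, 164282 and 167106, were the highest of the 12 libraries, of which the lowest had 32177.

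All 10 enzymes were abundant transcripts except Sdsl. Divided by the length of the merged exons, the mean level in the 6 low-fat libraries, in reads per 20 M per kilobase, was 14876 for Tat, 13473 for Hpd, 6691 for Tdo2, 6149 for Uroc1, 5769 for Sds, 4194 for Gls2, 3846 for Hal, 3800 for Ftcd, 3183 for Amdhd1 and 350 for Sdsl. Neighbours in this order had ranges that did not overlap at 3 places only: Hpd over Tdo2, Ftcd over Amdhd1, and Amdhd1 over Sdsl. In the 6 high-fat libraries the order on the same scale was Hpd (14225), Tat (13727), Tdo2 (6378), Uroc1 (4744), Sds (3849), Ftcd (3290), Gls2 (2741), Hal (2455), Amdhd1 (2442) and Sdsl (223). There the ranges of neighbours parted at Tat over Tdo2, Tdo2 over Uroc1 and Amdhd1 over Sdsl. Together the 10 genes made up 0.686% to 0.940% of each library. The spread over all 12 libraries differed widely between the genes, from a coefficient of variation of 4.69% for Hpd to 29.5% for Sds.

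**Figure D1:**
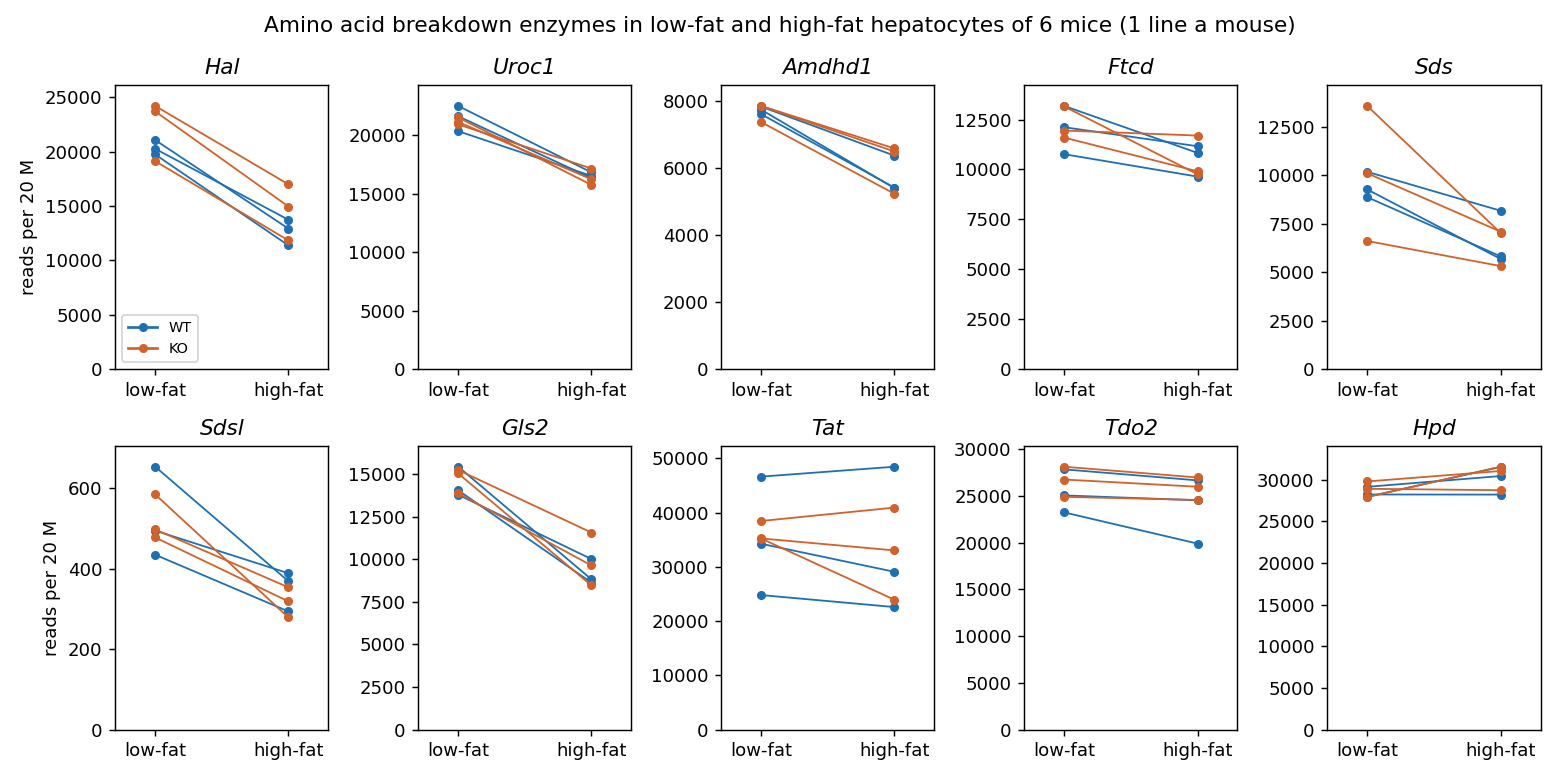
Values of the 10 enzymes in the 12 libraries, in reads per 20 M on linear axes that start at 0. Each point is a library, coloured by genotype, and lines join the low-fat and high-fat library of a mouse. The lines of Hal, Uroc1, Amdhd1, Sdsl and Gls2 fall in every mouse to a range below all low-fat libraries, while those of Tat, Tdo2 and Hpd stay within or near the low-fat range.

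High-fat hepatocytes held less RNA of the histidine, serine and glutamine enzymes than low-fat hepatocytes of the same mouse. In the fit over all 6 mice, 7 of the 10 genes fell (Hal, Uroc1, Amdhd1, Ftcd, Sds, Sdsl and Gls2), to between 61.1% and 83.3% of the low-fat level, and none rose. Over all genes tested, 4.23% fell and 6.76% rose, 11% in all. Tat, Tdo2 and Hpd, the genes of tyrosine and tryptophan breakdown, did not pass the test. The median log2 difference of the 10 genes was -0.44, against -0.02 over all genes tested. All differences here are on the log2(value + 2) scale after rescaling between libraries, from limma with a term for each mouse, with p-values adjusted over 16563 genes. In bulk RNA, fewer cells of a type and less RNA per cell cannot be told apart.

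Hal, which carries out the first step of histidine breakdown, had the lowest ratio of high-fat to low-fat level of the 10 over all 6 mice. Those of Sdsl (61.6%) and Gls2 (62.6%) were close to it. In KO mice alone the ratio of Sdsl (58.8%) was below that of Hal (62.5%). Its values in the low-fat libraries were 19730, 21058 and 20254 in WT and 19111, 23695 and 24194 in KO replicates 1 to 3. In the high-fat libraries of the same mice they were 11360, 12904 and 13722 in WT and 11820, 14939 and 16983 in KO. Every high-fat library lay below every low-fat library, and the high-fat level was 61.1% of the low-fat level (95% interval 54.6% to 68.4%, limma adjusted p = 0.00382).

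Uroc1, the second enzyme of the path, had low-fat values of 22513, 21630 and 20356 in WT and 21531, 21142 and 20932 in KO. Its high-fat values were 16826, 16337 and 16522 in WT and 15752, 16233 and 17156 in KO. The fractions did not overlap and the spread within each was small, with a coefficient of variation of 3.42% in low-fat and 2.96% in high-fat libraries. The high-fat level was 74.3% of the low-fat level (95% interval 66.7% to 82.8%, limma adjusted p = 0.00841). The call was lost when the low-fat or the high-fat library of WT replicate 1 was left out (limma adjusted p = 0.0649 and 0.0523).

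Amdhd1, the third enzyme, had low-fat values of 7738, 7603 and 7829 in WT and 7367, 7848 and 7850 in KO, and high-fat values of 5396, 5410 and 6366 in WT and 5227, 6490 and 6581 in KO. The fractions again did not overlap. The high-fat level was 73.5% of the low-fat level (95% interval 66.0% to 81.9%, limma adjusted p = 0.00785), and leaving out the low-fat library of WT replicate 1 ended the call (limma adjusted p = 0.0509).

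Ftcd, which passes the one-carbon unit of histidine to folate, differed least among the 7. Its low-fat values were 12119, 13185 and 10766 in WT and 11952, 13160 and 11598 in KO, and its high-fat values 11166, 10832 and 9643 in WT and 11702, 9759 and 9909 in KO. The fractions overlapped across mice, although each mouse had the lower value in its high-fat library. The high-fat level was 83.3% of the low-fat level (95% interval 76.3% to 91.1%, limma adjusted p = 0.0238). This call did not hold without any single WT library (limma adjusted p = 0.0871 to 0.124), without either library of KO replicate 3 (0.0635 and 0.0681), with the scaling as deposited (0.0635) or with scaling to hepatocyte markers (0.328).

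Hal and Amdhd1 are neighbours in the genome. In GRCm38 (GENCODE M21), Hal (ENSMUSG00000020017) spans chr10:93488768-93519304 on the plus strand and Amdhd1 (ENSMUSG00000015890) chr10:93523338-93540033 on the minus strand, so that their 3' ends face each other across 4.033 kilobases. Over the 12 libraries the log2 values of the pair had a Pearson correlation of 0.964, as a description over libraries that share mice and fractions. Uroc1 (ENSMUSG00000034456), at chr6:90333284-90364551 on the plus strand, lies on another chromosome, and its correlation with Gls2, 0.977, was the highest among all pairs of the 10 genes.

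Both serine dehydratase genes fell. Sds had low-fat values of 10184, 9272 and 8874 in WT and 6609, 13587 and 10109 in KO, and high-fat values of 8175, 5685 and 5817 in WT and 5315, 7031 and 7094 in KO. Mice differed more for Sds than for the histidine genes: KO replicate 1 had a low-fat value below the high-fat values of WT replicate 1, KO replicate 2 and KO replicate 3. Within each mouse the high-fat value was the lower, and the high-fat level was 65.0% of the low-fat level (95% interval 57.3% to 73.6%, limma adjusted p = 0.00469).

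Sdsl had far fewer reads, with low-fat values of 654, 435 and 495 in WT and 585, 498 and 478 in KO, and high-fat values of 369, 294 and 389 in WT and 279, 354 and 319 in KO. No high-fat library reached the lowest low-fat library. The high-fat level was 61.6% of the low-fat level (95% interval 51.9% to 73.2%, limma adjusted p = 0.00811). Sdsl (ENSMUSG00000029596, chr5:120458186-120472810, minus strand) and Sds (ENSMUSG00000029597, chr5:120476526-120483932, plus strand) are also neighbours on opposite strands, with 3.715 kilobases between their 5' ends. Over the 12 libraries, which share mice and fractions, the log2 values of Sds and Sdsl had a Pearson correlation of 0.697, lower than that of Hal and Amdhd1. Per kilobase of exon, the level of Sds was 9.98 to 24.1 times that of Sdsl in the same library. Exons of Sds overlap those of Gm15690 and Plbd2 on the opposite strand. Whether reads were counted by strand is not given in the sources used here, so a share of the reads of Sds could belong to those genes.

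Gls2, the glutaminase of periportal hepatocytes, had low-fat values of 15434, 14047 and 13785 in WT and 15036, 13866 and 15241 in KO. Its high-fat values were 8820, 8627 and 10012 in WT and 8463, 9638 and 11568 in KO, all below the lowest low-fat library. The high-fat level was 62.6% of the low-fat level (95% interval 54.4% to 72.1%, limma adjusted p = 0.00519). Exons of Gls2 (ENSMUSG00000044005, chr10:128194457-128210004, plus strand) overlap those of Spryd4 on the opposite strand, with the same limit as for Sds.

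The 3 genes of aromatic amino acid breakdown did not pass the test, and their intervals give the differences that remain possible. Tat had low-fat values of 46643, 34264 and 24808 in WT and 38466, 35227 and 35246 in KO, and high-fat values of 48468, 29093 and 22596 in WT and 40937, 23945 and 33039 in KO. The 3 WT mice lay far apart in both fractions: the high-fat library of WT replicate 1 was the highest of all 12, and that of WT replicate 3 the lowest. The high-fat level of Tat was 87.0% of the low-fat level (95% interval 75.2% to 100.6%, limma adjusted p = 0.196). The values as deposited were lower in the high-fat library in 4 of 6 mice, and after rescaling in 6 of 6.

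Tdo2 had low-fat values of 25039, 23222 and 27822 in WT and 26736, 28106 and 24887 in KO, and high-fat values of 24519, 19889 and 26647 in WT and 25967, 26954 and 24552 in KO. The fractions overlapped, and the high-fat level was 91.5% of the low-fat level (95% interval 82.6% to 101.5%, limma adjusted p = 0.240). Hpd, which acts directly after Tat in tyrosine breakdown, had low-fat values of 27958, 28243 and 29161 in WT and 27930, 28927 and 29806 in KO, and high-fat values of 31553, 28227 and 30457 in WT and 31576, 28754 and 31062 in KO. The high-fat level of Hpd was 101.6% of the low-fat level (95% interval 91.4% to 112.9%, limma adjusted p = 0.854). Hpd, chosen as a reference after its small spread was seen, gives a comparison inside each library: the ratio of Hal to Hpd per kilobase lay between 0.262 and 0.314 in the low-fat and between 0.138 and 0.210 in the high-fat libraries, which does not depend on the scaling between libraries. The same ratio for Gls2 lay between 0.290 and 0.338 and between 0.164 and 0.228, and for Sds, with overlap, between 0.297 and 0.590 and between 0.211 and 0.325.

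**Figure D2:**
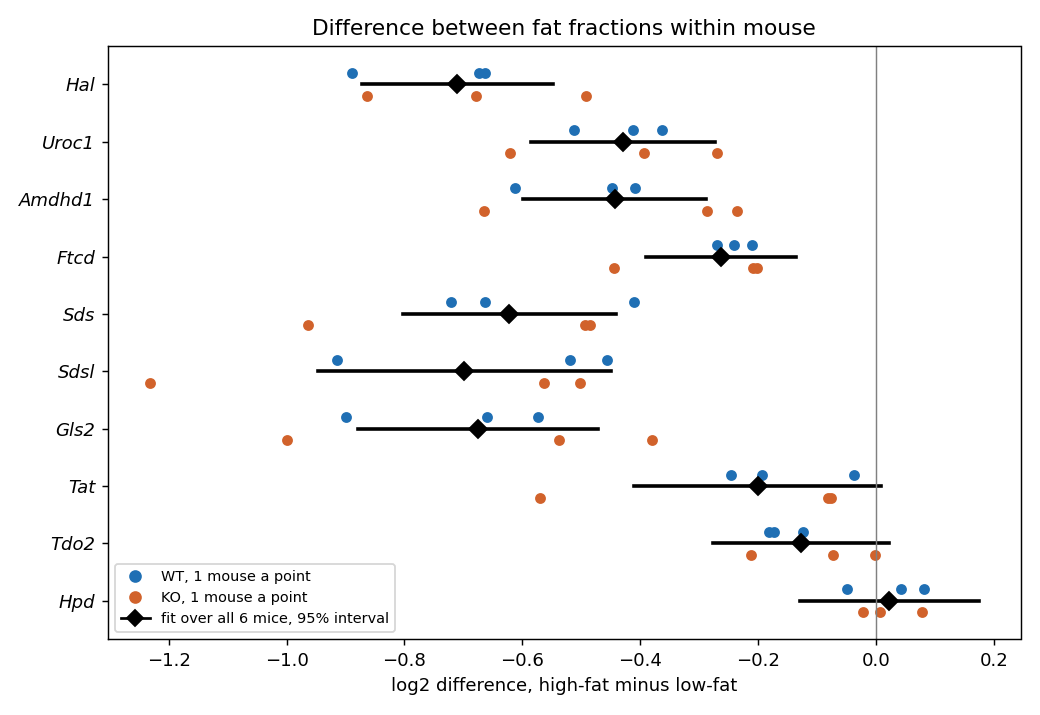
Log2 difference of high-fat against low-fat hepatocytes for each of the 10 enzymes. Circles are the 6 mice, coloured by genotype, and diamonds with lines are the limma estimate over all 6 mice with its 95% interval. Hal, Sdsl, Gls2 and Sds have estimates of -0.62 or lower, and the intervals of Tat, Tdo2 and Hpd include 0.

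Counted by mouse, 9 of the 10 genes were lower in the high-fat library of all 6 mice after rescaling, as were 11.6% of all genes tested. Hpd was lower in 2 of 6. An exact two-sided sign-flip permutation test over the 6 mice gave p = 0.0312 for each of the 9, the smallest p that 6 mice allow, and p = 0.344 for Hpd. For Hal, Uroc1, Amdhd1, Sdsl and Gls2, all 6 high-fat libraries lay below all 6 low-fat libraries, which held for 0.398% of all genes.

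The size of the difference varied between mice. The replicate 1 mouse of each genotype had the largest log2 difference of Hal (-0.89 in WT and -0.86 in KO), as well as of Uroc1, Amdhd1, Sdsl and Gls2, and the smallest of Sds. These are the mice whose high-fat libraries had the highest sums of Kupffer cell markers, sinusoidal endothelial markers and nuclear-retained RNAs. The part of other cells and of these RNAs in the differences was not tested. In the other 4 mice, an alternative chosen after seeing the data, 7 of the 10 genes were again called, among them Hal with a log2 difference of -0.61 (limma adjusted p = 0.000532) and Ftcd with -0.27 (adjusted p = 0.0195). After scaling to the hepatocyte markers, also chosen after seeing the data, 6 were called, Ftcd being lost. Hal then had a log2 difference of -0.62 (limma adjusted p = 8.65e-05). Many genes outside the 10 were called in both of these fits too, and their counts are given with the dependence on the processing.

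Within a single genotype the estimates were similar and fewer passed the test. In WT hepatocytes limma called 0 of the 10 genes and 0% of all genes, while 7 of the 10 and 3209 of all genes had an unadjusted p under 0.05. The log2 difference there was -0.74 for Hal and -0.71 for Gls2, both with an adjusted p of 0.0553 in limma, which was the smallest adjusted p of any gene. That 0 depends on the processing. With only the WT libraries fitted 6 of the 10 were called, beside many genes outside the 10, whose count is given with the processing. It was also 6 without either library of KO replicate 1, whose spread the fit shares. Leaving out single libraries gave 0 to 6 of the 10 and 0 to 1464 of all genes in WT. With the scaling as deposited 4 were called, beside 122 that rose and 51 that fell over all genes. With a pseudocount of 10 it was 2, beside 118 that rose and 54 that fell. In KO hepatocytes 2 of the 10 genes fell, Hal with a log2 difference of -0.68 (limma adjusted p = 0.0311) and Sds with -0.65 (adjusted p = 0.0366), while 0.392% of all genes fell, 1.31% rose and 1.7% were called in all. In KO, Hal was called in 10 and Sds in 9 of 22 alternatives. The count was 0 of the 10 without the term for the mouse (no replicate block), without the filter and with only the KO libraries fitted, and leaving out any single library other than those of KO replicate 1 left 0 or 1. With the mouse term, 2 further members lay just above the threshold, Gls2 at -0.64 (adjusted p = 0.0517) and Sdsl at -0.77 (adjusted p = 0.0551).

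The genotypes were not shown to differ in how the fractions differed. For the interaction, the KO difference minus the WT difference, limma called 0 of the 10 enzymes and 0% of all genes, and 0 of the 10 had an unadjusted p under 0.05, as did 66 genes overall. The interaction estimates of the 10 ran from -0.14 for Sdsl (95% interval -0.63 to 0.36) to 0.09 for Amdhd1 (-0.22 to 0.41) on the log2 scale.

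None of the 10 enzymes differed between KO and WT hepatocytes past the test in either fraction. In low-fat and in high-fat hepatocytes limma called 0 of the 10 genes, against 0.00604% of all genes in each, which is Ptprk alone. No member had an unadjusted p under 0.05, while 285 and 334 genes overall did. Hal had the largest difference in both fractions, with a KO mean of 22333 ± 2802 (SD, n = 3) against 20347 ± 669 in WT low-fat libraries and of 14581 ± 2600 against 12662 ± 1200 in high-fat libraries. Its log2 difference was 0.13 (95% interval -0.22 to 0.49) and 0.20 (-0.16 to 0.55). KO replicate 1 lay below all WT libraries in low-fat hepatocytes, so that the genotypes overlapped.

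The other members were closer together. Uroc1 had a mean of 21202 ± 304 in KO and 21500 ± 1084 in WT low-fat libraries (SD, n = 3), and of 16380 ± 714 and 16562 ± 247 in high-fat libraries, and its interval of -0.23 to 0.20 in low-fat hepatocytes was among the narrowest. Gls2 had means of 14714 ± 742 in KO and 14422 ± 886 in WT low-fat, and of 9890 ± 1568 and 9153 ± 750 in high-fat libraries. Tat was measured least precisely, with intervals of -0.53 to 0.72 in low-fat and -0.61 to 0.63 in high-fat hepatocytes. For none of the 10 were the KO and WT libraries of a fraction without overlap, a separation seen in 4.97% of all genes in low-fat and 4.51% in high-fat libraries. An exact permutation test of 3 against 3 libraries cannot go below p = 0.1, and the smallest p among the members was 0.3, for Hal in high-fat hepatocytes.

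**Figure D3:**
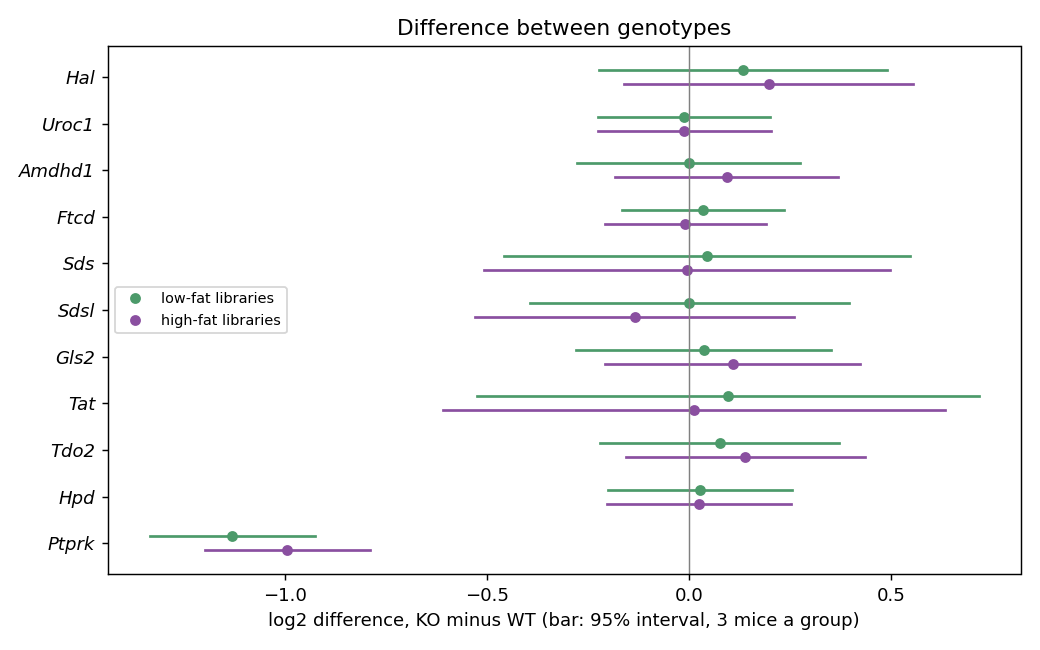
Log2 difference of KO against WT for each of the 10 enzymes in low-fat and in high-fat hepatocytes, as limma estimates (points) with 95% intervals (lines), with Ptprk below for comparison. All intervals of the 10 enzymes include 0, that of Tat being the widest, while those of Ptprk lie near -1.13 and -0.99.

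In the fit over all 6 mice, most other enzymes of amino acid metabolism had a log2 difference below 0. Called genes went in both directions. Differences were below 0 for 12 of 12 genes of serine, glycine and threonine, 9 of 9 of tryptophan and 4 of 4 of lysine. So were 6 of 6 of phenylalanine and tyrosine, 11 of 13 of branched-chain amino acids and 5 of 7 of methionine and cysteine. Glutamine, glutamate, alanine and proline had 7 of 10, histidine and one-carbon metabolism 4 of 6, and all genes tested 9084 of 16563. Over 8 lists that hold 67 tested genes outside the 10, 8 fell and 2 rose between the fractions of all 6 mice, with a median log2 difference of -0.11, beside 4.23% of all genes that fell and 6.76% that rose. Of 6 other genes of histidine and one-carbon metabolism none passed the test (median -0.12), and the same was true of 6 of phenylalanine and tyrosine (-0.12), 13 of branched-chain amino acids (-0.07) and 4 of lysine breakdown (-0.11). In each of these 4 lists the values of limma's adjusted p stayed above 0.05.

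Of 12 genes of serine, glycine and threonine metabolism 2 fell: Gldc, the glycine decarboxylase, to 66.8% of the low-fat level (limma adjusted p = 0.00382), and Agxt, an aminotransferase of alanine and glyoxylate, with a log2 difference of -0.23 (adjusted p = 0.026). Of 9 genes of tryptophan breakdown 4 fell. Acmsd, which diverts an intermediate of the kynurenine path from NAD synthesis, had a log2 difference of -0.48 (limma adjusted p = 0.0041), Kynu, kynureninase, of -0.26 (0.011) and Kyat3, a kynurenine aminotransferase, of -0.24 (0.010). The fourth, Kmo, kynurenine monooxygenase, is named after its value was seen (-0.21, adjusted p = 0.042). Tdo2, which feeds this path, is the member at its entry and was not called.

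The remaining lists held 3 genes that rose, Oat, Csad and Slc16a10, and 6 that fell. Oat, ornithine aminotransferase, which pericentral hepatocytes are known to hold, had a log2 difference of 0.80 (limma adjusted p = 0.0098), while Got1, an aspartate aminotransferase, had one of -0.43 (0.0063), and these were the 2 called among 10 genes of glutamine, glutamate, alanine and proline (median -0.04). Among 7 genes of methionine and cysteine, Csad, an enzyme of taurine synthesis, rose by 0.53 (0.0041) and Cbs, cystathionine beta-synthase, had a difference of -0.33 (0.021). Of 9 transporters 1 rose, Slc16a10, a carrier of aromatic amino acids, by 0.37 (0.0079), and 2 fell, the mitochondrial ornithine carrier Slc25a15 (-0.28, adjusted p = 0.019) and the mitochondrial glutamate carrier Slc25a22 (-0.22, adjusted p = 0.043). Of 12 hormone and transcription regulators 2 fell: Ppargc1a, a coactivator of glucose synthesis genes (-0.39, adjusted p = 0.012), and Hnf4a, a nuclear receptor of hepatocytes (-0.28, adjusted p = 0.032). No gene of these lists was called in KO against WT.

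**Figure D4:**
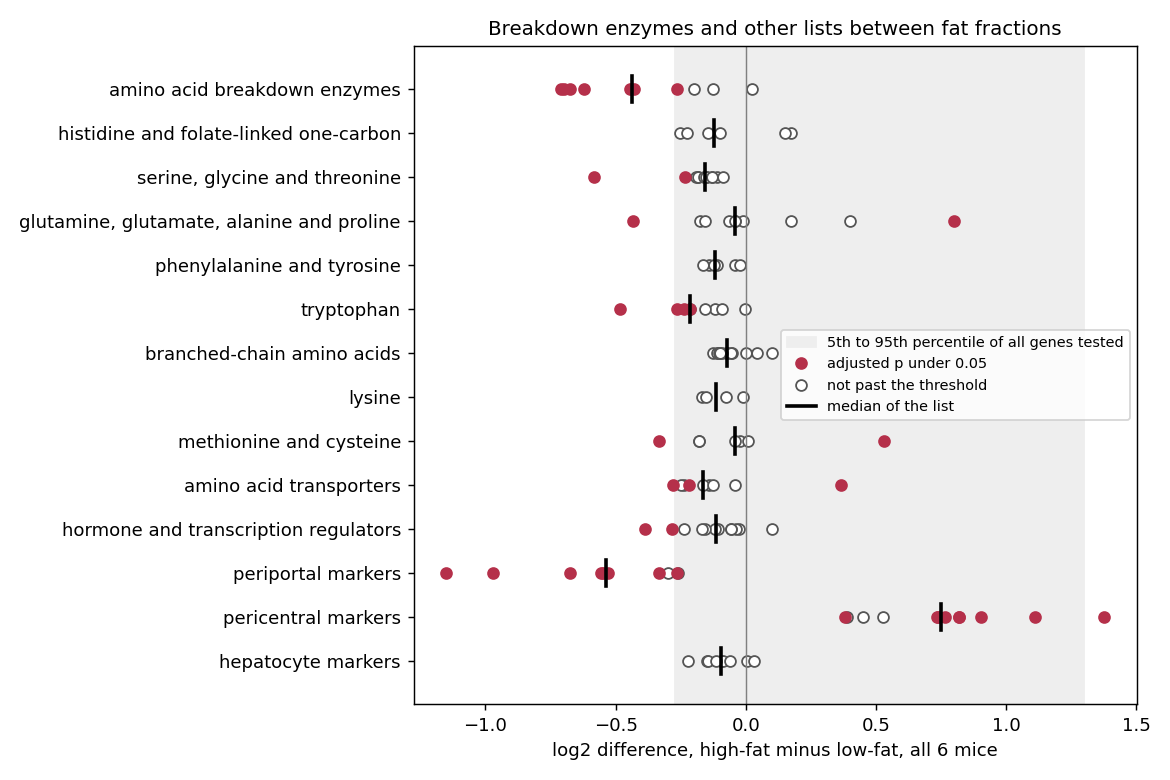
Log2 difference of high-fat against low-fat hepatocytes over all 6 mice for the 10 enzymes and for lists of other genes. Each point is a gene, filled where the adjusted p was under 0.05, the grey band spans the 5th to the 95th percentile of all genes tested, and the bar is the list's median, which is -0.44 for the 10 enzymes, -0.54 for periportal markers and 0.75 for pericentral markers.

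The name periportal cannot be checked by position in bulk RNA, so other markers of lobule zones are given beside the enzymes. Of 10 periportal markers 8 fell, with a median log2 difference of -0.54, among them Cdh1 (-0.97), Cyp2f2 (-0.55) and Arg1 (-0.26). Pck1 and Ass1 had differences of -0.30 and -0.26 and did not pass (limma adjusted p = 0.082 and 0.107). Of 12 pericentral markers 9 rose, with a median of 0.75, among them Cyp2e1 (0.73) and Cyp1a2 (0.82), while Glul, glutamine synthetase, did not pass (0.39, adjusted p = 0.194). The summed pericentral markers lay between 54373 and 93109 in low-fat and between 94847 and 122007 in high-fat libraries, and the summed periportal markers between 179017 and 214998 and between 140670 and 168185, in both cases without overlap. The zone markers thus moved with the 7 enzymes, and their part in the result was not tested.

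Markers of the other cell types also moved with the fractions. All 10 stellate cell markers rose (median log2 difference 2.54), as did all 10 Kupffer cell markers (2.28) and all 10 sinusoidal endothelial markers (1.80), and their part in the fall of the 7 enzymes was not tested. None of 9 hepatocyte markers was called, with a median of -0.10. Of 8 cholangiocyte markers only 2 had enough reads to test, of which Sox9 fell (-0.59), and Cftr was at 0 in 7 libraries. Of 2 lymphocyte markers, 4 nuclear-retained RNAs and 8 genes of cell isolation stress that could be tested, none passed (medians -0.018, 0.22 and 0.0035). In KO against WT no zone or cell type marker was called. Below 0 in low-fat and high-fat hepatocytes were 11 and 11 of 12 pericentral markers (medians -0.47 and -0.38). For endothelial markers it was 10 and 10 of 10 (-0.67 and -0.43), for Kupffer cell markers 10 and 8 (-0.78 and -0.11). Stellate cell markers had 9 and 5 of 10 (-0.50 and 0.0078), periportal markers 1 and 3 (0.050 and 0.070). The part of these lists in KO against WT was not tested.

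**Figure D5:**
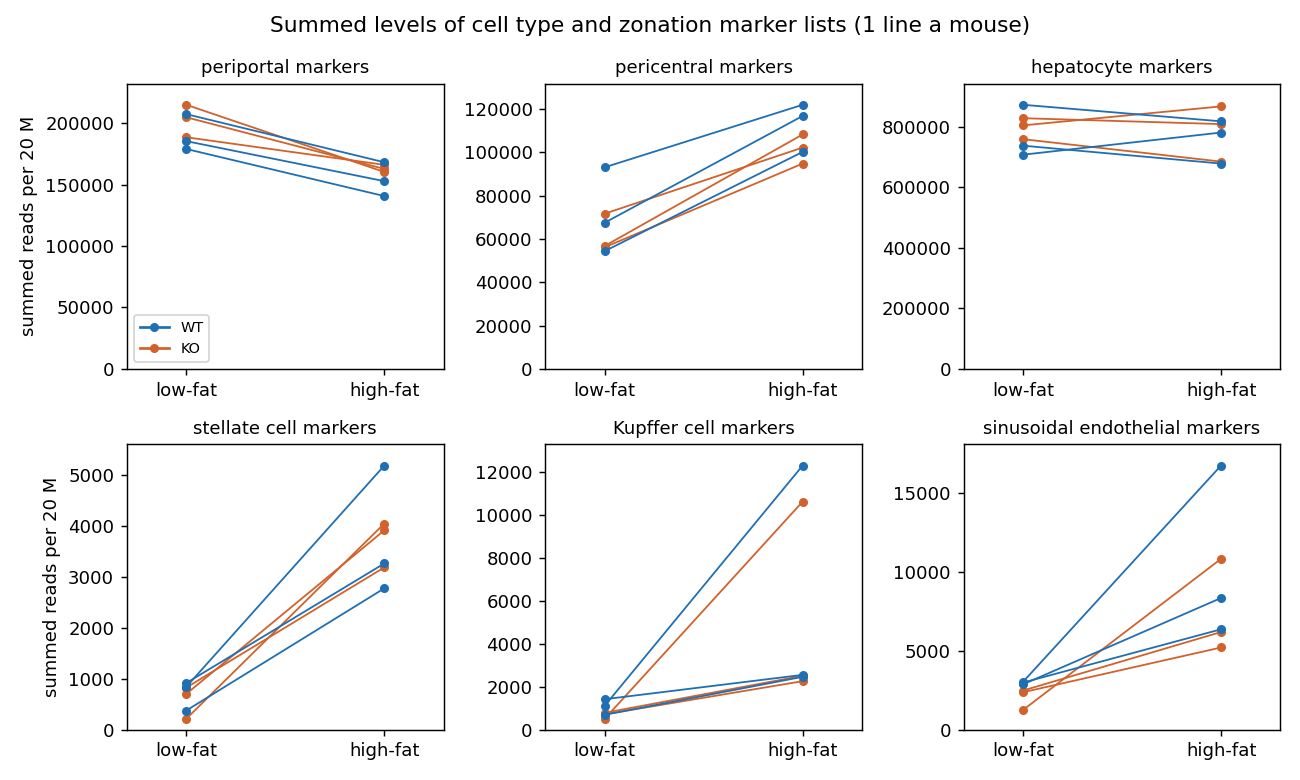
Summed markers of each cell type or lobule zone in the 12 libraries, in reads per 20 M. Points are libraries, coloured by genotype, and lines join the fractions of a mouse. Periportal sums are lower and pericentral, stellate, Kupffer and endothelial sums higher in high-fat libraries, and the Kupffer sums of WT replicate 1 and KO replicate 1 stand above the other 4 high-fat libraries.

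Across the 12 libraries, the members with the closest course to the mean of all 10 (each on a z-score of its log2 values) were Gls2 (r = 0.96) and Uroc1 (0.95), and those with the least were Tat (0.36) and Hpd (0.17). The lowest correlation of a pair was -0.313, between Hpd and Ftcd. Outside the 10, and over 10507 genes with a mean of at least 100, the closest were Ceacam1 (r = 0.961), Esr1 (0.945), Arg1 (0.939), Aldh1b1 (0.938) and Apeh (0.933). Ceacam1 encodes an adhesion protein with a part in insulin clearance, Esr1 estrogen receptor alpha, Arg1 the arginase of the urea cycle, Aldh1b1 a mitochondrial aldehyde dehydrogenase and Apeh an acylpeptide hydrolase. Mean levels in low-fat and high-fat libraries were 4271 and 3673 for Ceacam1, 971 and 586 for Esr1, and 4142 and 1972 for Aldh1b1. The libraries share mice and fractions, so these values of r describe 12 libraries and carry no test. Each member is also part of the mean it is set against, which raises its r. Genes outside the 10 are not, so r of members and of outside genes cannot be compared directly.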

How the data were processed

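RNA-seq of polyA RNA was measured in 12 libraries, a low-fat and a high-fat one from each of 3 WT and 3 KO mice, grouped by the labels. The values the authors deposited are a score: read counts per gene scaled to 20 M per library and rounded up, as the columns themselves show (each sums to 20.01 M, with gaps that give 15.1 to 25.0 M reads). The submitters' processing notes name the genome build mm9. The aligner, counter and strandedness are not given in the sources used here. Coordinates come from GENCODE M21 (GRCm38), gene lengths too, and promoters from RefSeq (GRCm38.p6).

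The 16563 genes that reached a value of 10 in 3 or more libraries were rescaled by the trimmed mean of M values, taken as log2(value + 2) and fitted with limma 3.58.1 in R 4.3.3, letting the variance follow the intensity. Two-sided p-values were adjusted by Benjamini-Hochberg over all of these genes, with calls at an adjusted p under 0.05. KO against WT used 4 group means. The comparisons of fractions and the interaction used a term for each mouse, since the labels name the mouse of each library. As a check of the pairing, deviations of the fractions of a mouse had a mean correlation of 0.516 in WT and 0.165 in KO (-0.00869 to 0.46). Replicates are separate mice. Same-numbered WT and KO libraries are different mice too, yet correlated at 0.251 to 0.396 in low-fat and -0.171 to 0.49 in high-fat hepatocytes, so KO against WT was also fitted with the number as a replicate block. The fit was tried on simulated data with larger changes than those of the 10 enzymes. That trial does not show how well changes of their size are found.

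The members and gene lists were chosen with earlier results of these data known. Named were all members, Ptprk, at most 3 called genes per list and direction with the largest difference, the 5 genes closest to the members' mean course, and markers of cell types. The alternatives were other pseudocounts, filters, scalings and blocks, only the libraries compared, and each library left out. Scaling to hepatocyte markers and a fit of 4 mice were added after seeing the data.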

Additional observations from a re-analysis of the deposited data

Results flagged for a closer look

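For Ftcd, the log2 difference of high-fat minus low-fat was -0.444 in KO replicate 2, farther from the other 5 mice than Dixon's criterion for 6 values allows. Chance alone marks about 1 in 20 such groups of values, and of the 10 members' within-mouse differences only those of Ftcd met the criterion.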

How the results depend on the processing

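Over 21 alternatives of the fraction comparison in all 6 mice, Hal, Sds, Sdsl and Gls2 passed in 21, Amdhd1 in 20, Uroc1 in 19 and Ftcd in 11, while Tat, Tdo2 and Hpd passed in 0. Leaving out single libraries gave 4 to 7 members and 525 to 2697 genes in all 6 mice, 4 being without the low-fat library of WT replicate 1. It gave 0 to 6 members and 0 to 1464 genes in WT, 0 to 2 members and 0 to 224 genes in KO, and 0 to 1 gene in KO against WT in high-fat hepatocytes. Genes called in all 6 mice split into 1119 higher and 700 lower, into 1179 and 342 with the scaling as deposited, 1117 and 529 with median-of-ratios scaling, 836 and 120 without the block, and 1313 and 147 with hepatocyte-marker scaling.

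In WT, the count of members and genes called was 2 and 172 with a pseudocount of 10, 4 and 173 with the scaling as deposited, 6 and 1123 with only the libraries compared, 2 and 395 with hepatocyte-marker scaling and 6 and 416 in 4 mice (without replicate 1 of either genotype). In KO it was 0 and 115 without the filter and 0 and 0 with only the libraries compared. With the scaling as deposited 5 members were called in KO, beside 281 genes that rose and 71 that fell over all genes. It was 4 and 546 with hepatocyte-marker scaling and 4 and 429 in 4 mice, which gave 1167 genes over both genotypes. Without the replicate block it was 0 and 139 in KO and 956 genes in all 6 mice. A replicate block in KO against WT left 0 members and 1 gene in each fraction, and only the libraries compared gave 0 genes in high-fat hepatocytes. Of the single members' values, 93 changed sign, none of them called. KO against WT turned in low-fat hepatocytes for Amdhd1 (0.0044 without the filter, 0.017 in 4 mice) and Sdsl (-0.0054 with the scaling as deposited, -0.0035 with median-of-ratios scaling), and with hepatocyte-marker scaling for Ftcd (-0.022), Sds (-0.011), Sdsl (-0.055), Gls2 (-0.020) and Hpd (-0.028). In high-fat hepatocytes it turned without the filter for Uroc1 (0.0062), Ftcd (0.0084) and Sds (0.013), with median-of-ratios scaling for Sds (0.00016), with hepatocyte-marker scaling for Tat (-0.040) and Hpd (-0.029), and in 4 mice for Uroc1 (0.047), Sds (0.32) and Sdsl (0.015). Hpd turned without the filter in the WT fractions (-0.0020) and the interaction (0.0086), where it was 0.0048 with median-of-ratios scaling and 0.026 in 4 mice.

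Leaving out single libraries, KO against WT in low-fat hepatocytes ranged from -0.043 to 0.020 for Uroc1, -0.047 to 0.031 for Amdhd1, -0.020 to 0.068 for Ftcd, -0.18 to 0.30 for Sds, -0.16 to 0.16 for Sdsl, -0.018 to 0.10 for Gls2, -0.11 to 0.32 for Tat, -0.021 to 0.17 for Tdo2 and -0.013 to 0.068 for Hpd. In high-fat hepatocytes it ranged from -0.078 to 0.066 for Uroc1, -0.067 to 0.039 for Ftcd, -0.11 to 0.18 for Sds, -0.24 to 0.0038 for Sdsl, -0.043 to 0.26 for Gls2, -0.23 to 0.30 for Tat and -0.023 to 0.066 for Hpd. The KO fractions ranged from -0.0076 to 0.045 for Hpd, and the interaction from -0.029 to 0.17 for Hal, -0.078 to 0.11 for Uroc1, -0.086 to 0.036 for Ftcd, -0.13 to 0.11 for Sds, -0.28 to 0.11 for Sdsl, -0.057 to 0.27 for Gls2, -0.17 to 0.081 for Tat and -0.042 to 0.026 for Hpd. The cause was not tested. Sdsl had the fewest reads of the 10, so its counting error is largest relative to the level. The part of counting error in these ranges was not tested.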

Other observations

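The ratio of Hal to Ftcd per kilobase, the first and last members of the histidine path, was 0.919 to 1.20 in low-fat and 0.581 to 0.986 in high-fat libraries.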
